A study of Rattus norvegicus with 13 samples.

Results

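Cyclins, the cyclin-dependent kinases (CDKs) they activate and the proteins that hold these kinases back or release them were followed in rat mammary epithelial cells at 2 ages. The genes were chosen by symbol alone: cyclins, numbered CDKs, CDK inhibitors of the *Cdkn1* and *Cdkn2* families, *Wee1*, *Pkmyt1*, the *Cdc25* genes and the *Cks* genes. The rule matched 48 of the 14790 genes measured, and all 48 passed the minimum for testing. Of these, 24 belong to the cell cycle, 12 act in transcription and 12 are in neither list. *Ccna1*, *Ccnb2*, *Ccnb3*, *Ccnl1*, *Cdk11*, *Cdkn2a* and *Cdkn2d* were listed for these roles and were not analysed here.

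RNA-seq was performed on Wistar-Furth rats, a strain susceptible to mammary cancer, of which 6 were 6 weeks old, inside the window of susceptibility (WOS), and 7 were 10 weeks old and outside it. Both ages had the same strain and preparation, no treatment agent or allele is named for either, and each rat gave 1 library. Abdominal and inguinal glands were minced and digested with collagenase, and ductal fragments were kept on a nylon filter. The preparation enriches for epithelium but does not free it of stroma or immune cells.

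In dividing cells, D-type cyclins with CDK4 and CDK6, and then cyclin E with CDK2, drive cells through G1 by phosphorylating the RB proteins, which frees E2F factors to induce the genes of DNA replication. Cyclin A with CDK2, and then cyclins A and B with CDK1, take cells through S phase and into mitosis. CDK1 is held inactive by WEE1 and PKMYT1 and is released by CDC25 phosphatases. A separate branch of the family, including CDK7, CDK8, CDK9, CDK12 and CDK13, works on RNA polymerase II and the Mediator complex. In the mammary gland, ducts elongate from proliferating terminal end buds during puberty.

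Values are normalized counts, that is, read counts per gene that were scaled per library and rounded to whole numbers. Their totals ranged from 13261906 to 15659533 per rat. The depth of each library before scaling is unknown. All luminal and basal epithelial markers examined, 10 of each, were above 0 in every rat, and 1 of each list was higher at 10 weeks and 0 at 6 weeks (0 at an unadjusted p under 0.05). Of 6 fibroblast markers 4 were higher at 6 weeks, all were above 0 in every rat, and their summed level ranged from 106794 to 222648 at 6 weeks and from 19420 to 55407 at 10 weeks, with no overlap. Of 7 mast cell markers, 6 were higher at 6 weeks and 1 at 10 weeks, and 4 were at 0 in some rat. Their median log2 fold change, 6 weeks over 10 weeks, was 3.27, from -0.71 to 3.98 over the list. Their sums overlapped (1858 to 2906 and 1523 to 3780), but a sum is weighted towards the more abundant markers. Lymphocyte marker sums were 96 to 319 and 137 to 493, and macrophage marker sums were 577 to 1346 and 566 to 1257. Of 4 lymphocyte markers 1 was higher at 6 weeks, and of 5 adipocyte markers 2 were. Of 7 macrophage markers 0 passed the test (1 higher at 10 weeks at an unadjusted p under 0.05), as did 0 of 5 endothelial markers (1 higher at 6 weeks unadjusted). Over all genes tested, 8.71% were higher at 6 weeks and 7.39% at 10 weeks at an adjusted p under 0.05 in limma. The part of these cell types in the results below was not tested, and fewer cells of a type cannot be told apart from less RNA per cell in bulk libraries. The rats also differed within an age. On the first principal component of the values centred within each age, which held 28.3% of their variation, rats 75 and 80 (6 weeks) and rats 78, 81 and 83 (10 weeks) stood apart from the other 8. The labels name no batch for these sets, which come from the data. Some low whole numbers never occur as a value in certain rats. Of those checked, 10 were absent in rat 75, 15 in rat 80, 16 in rat 78 and 7 in rat 81. In rat 83, 0 were absent, and in the other 8 rats 0 to 8 were. Whether the sets differ by depth before scaling was not tested.

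Of the 12 members that changed with age, 10 belonged to the cell cycle, and all 10 were higher at 6 weeks. At an adjusted p under 0.05 in limma, 10 of 24 cell cycle members were higher at 6 weeks, against 8.71% of all genes tested. Of the same 24, 0 were higher at 10 weeks (1 at an unadjusted p under 0.05, and 1 at an adjusted p under 0.05 in limma-trend), against 7.39% of all genes. Their median log2 fold change, 6 weeks over 10 weeks, was 0.51, beside 0.028 over all genes. Of the 12 transcriptional members, 0 were higher at 6 weeks (0 at an unadjusted p under 0.05 and 0 in limma-trend). At 10 weeks 1 of the 12, *Cdk8*, was higher, near the share of 7.39% over all genes. At an unadjusted p under 0.05, 4 of the 12 were higher at 10 weeks, against 2186 of all 14790 genes. The median log2 fold change of the 12 was -0.18. Of the 12 remaining members, 1, *Cdk20*, was higher at 6 weeks, near the share of 8.71% over all genes. At an unadjusted p under 0.05, 3 of these 12 were higher at 6 weeks, against 2481 of all 14790 genes. At 10 weeks 0 of them were higher (0 unadjusted, 0 in limma-trend), and their median was 0.095. The ages did not overlap at all for *Ccnb1*, *Cdk1*, *Cdc25c* and *Cdk20*, each higher in all rats at 6 weeks, which is 4 of 48 members against 3.29% of all genes. They did not overlap for *Cdk12* either, higher in all rats at 10 weeks, which is 1 of 48 against 2.78% of all genes. The difference between the cell cycle and transcriptional members was not itself tested.

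**Figure D1:**
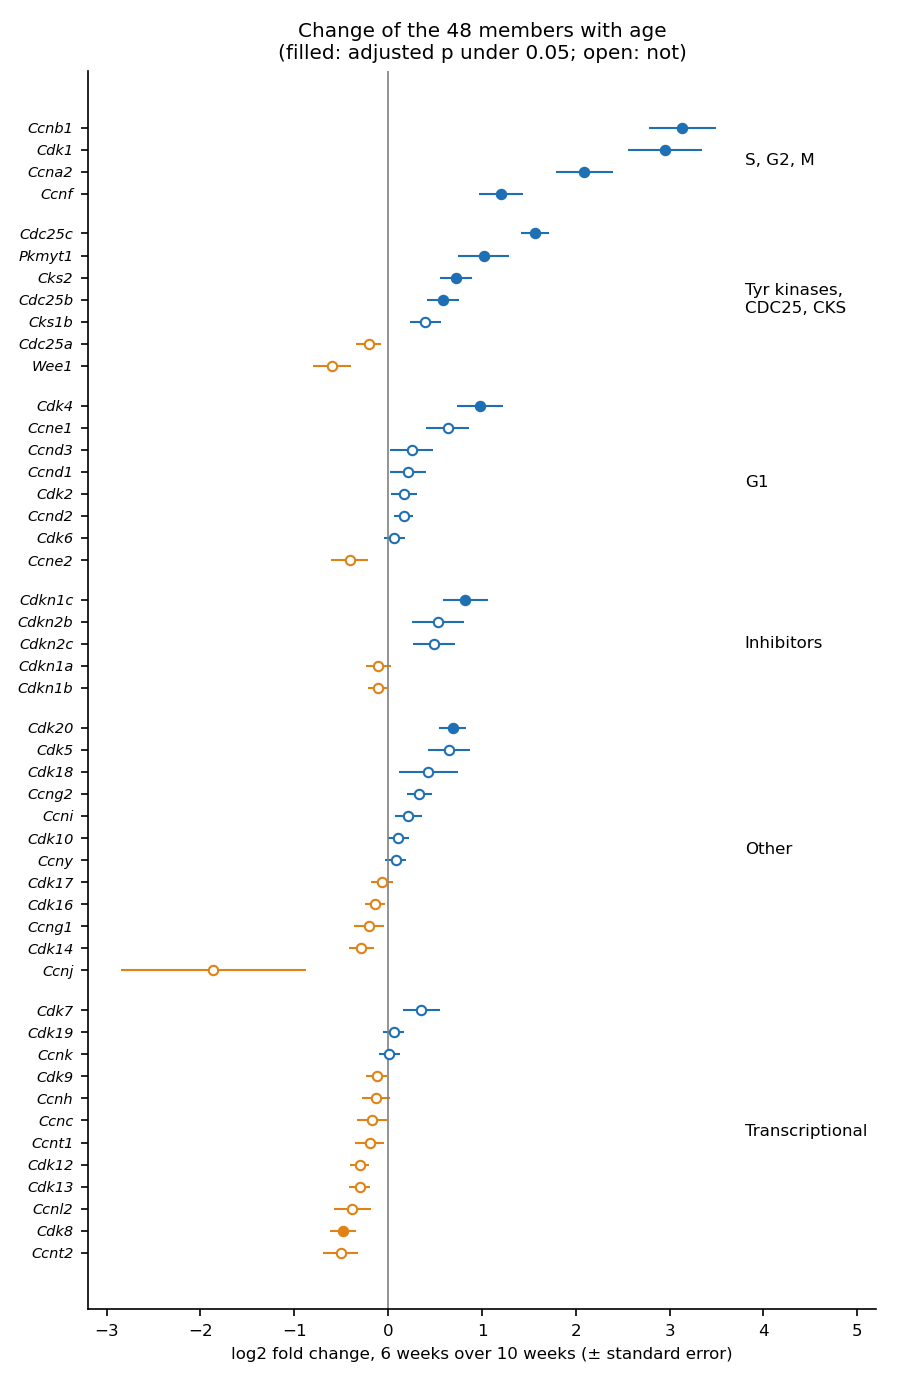
Log2 fold change of the 48 members, 6 weeks over 10 weeks, with its standard error (horizontal bars), ordered by role. Filled points have an adjusted p under 0.05. The S, G2 and M members lie between 1.20 and 3.14, while 9 of 12 transcriptional members lie below 0.

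All 4 members of the S, G2 and M group rose within WOS, and *Ccnb1*, *Cdk1* and *Ccna2* had the 3 largest changes among the 48. *Ccnb1* encodes cyclin B1, the partner with which CDK1 starts mitosis. Its normalized count was 52, 110 and 174 (lowest, median and highest rat) at 6 weeks and 6, 9 and 27 at 10 weeks, so the ages were fully apart. On the log2 scale the fold change was 3.14 ± 0.36 (SE), an 8.79-fold difference (adjusted p = 0.000194). *Cdk1*, the mitotic kinase itself, was at 52, 114 and 199 and at 7, 12 and 45, again without overlap. Its log2 fold change was 2.95 ± 0.40 (adjusted p = 0.000492). Rat 81 alone accounted for the upper end at 10 weeks, since the next highest rat of that age was at 14. Without rat 81 the log2 fold change of *Cdk1* was 3.23.

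*Ccna2*, cyclin A2, which serves CDK2 in S phase and CDK1 in G2, was at 93, 241.5 and 382 at 6 weeks and at 39, 48 and 95 at 10 weeks. The ages met only at rat 75 (93) and rat 81 (95), and 5 of 6 rats at 6 weeks were above all rats at 10 weeks. This gave a log2 fold change of 2.09 ± 0.30 (adjusted p = 0.000807). *Ccnf* encodes cyclin F, a substrate receptor of an SCF ubiquitin ligase that activates no CDK. It was at 89, 110.5 and 181 and at 33, 49 and 91, with rat 71 (89) just under rat 81 (91). Its log2 fold change was 1.20 ± 0.23 (adjusted p = 0.00514).

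The change of these 4 genes was also computed within each set of rats. In the 8 rats of the larger set the log2 fold changes were 3.75 (*Ccnb1*), 3.62 (*Cdk1*), 2.61 (*Ccna2*) and 1.16 (*Ccnf*). In the 5 rats of the smaller set they were 2.07, 1.81, 1.16 and 1.36, and 0 genes of the whole table passed the test there (1168 higher at 6 weeks and 808 at 10 weeks at an unadjusted p under 0.05).

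The promoters of the cell cycle members without overlap between the ages are shown because cell cycle genes are known for shared promoter elements: CCAAT boxes, bound by NF-Y, and the cell cycle genes homology region (CHR), bound by the DREAM and MuvB complexes. That of *Cdk8*, the 1 transcriptional member that changed, is shown beside them. Each sequence is the 250 bases before the annotated start in RefSeq (build GRCr8), 5′ to 3′ on the strand of the gene, with matches in capitals. The positions are chr2:33655226-33655475 on the minus strand for *Ccnb1*, chr20:19265043-19265292 on the plus strand for *Cdk1*, chr18:26630293-26630542 on the minus strand for *Cdc25c* and chr12:13917993-13918242 on the minus strand for *Cdk8*.
Ccnb1: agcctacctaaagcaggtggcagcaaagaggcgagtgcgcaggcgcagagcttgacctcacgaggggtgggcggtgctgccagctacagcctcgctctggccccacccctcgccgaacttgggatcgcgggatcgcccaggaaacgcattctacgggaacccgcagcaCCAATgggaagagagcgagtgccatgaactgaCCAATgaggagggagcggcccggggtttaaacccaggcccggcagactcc
Cdk1: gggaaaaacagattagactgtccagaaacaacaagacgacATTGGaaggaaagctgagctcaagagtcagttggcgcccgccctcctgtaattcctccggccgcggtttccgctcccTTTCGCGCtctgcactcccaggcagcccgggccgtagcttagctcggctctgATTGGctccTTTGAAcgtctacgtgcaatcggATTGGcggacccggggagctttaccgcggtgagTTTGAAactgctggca
Cdc25c: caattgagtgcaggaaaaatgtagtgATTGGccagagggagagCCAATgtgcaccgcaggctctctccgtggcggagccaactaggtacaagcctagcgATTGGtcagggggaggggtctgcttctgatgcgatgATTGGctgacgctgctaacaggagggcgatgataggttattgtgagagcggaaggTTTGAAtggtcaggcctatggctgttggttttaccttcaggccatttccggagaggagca
Cdk8: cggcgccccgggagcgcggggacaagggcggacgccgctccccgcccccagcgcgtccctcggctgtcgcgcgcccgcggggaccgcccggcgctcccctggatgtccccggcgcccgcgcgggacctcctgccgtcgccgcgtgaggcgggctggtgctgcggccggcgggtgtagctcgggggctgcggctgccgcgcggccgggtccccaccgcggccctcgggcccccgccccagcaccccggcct
The letters searched, on both strands, were CCAAT, then TTTGAA and TTCGAA for the CHR, and TTTGGCGC, TTTCCCGC, TTTGCCGC and TTTCGCGC for E2F.

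The *Ccnb1* promoter held 2 CCAAT boxes, starting 82 and 50 bases before the start. That of *Cdk1* held 3 CCAAT boxes, 2 CHR matches at 72 and 16 bases before the start, and 1 E2F match. In *Cdc25c* there were 4 CCAAT boxes and a CHR match 60 bases before the start. The *Cdk8* window held none of these letters. Windows running from 250 bases before to 50 after the start were found for 37 of the 48 members. Of the 7 changed cell cycle members with a window, 6 held CCAAT, 5 held a CHR match, 5 held both and 1 held an E2F match. Of the 9 with a window that did not pass the test, 5 held CCAAT, 2 held a CHR match, 1 held both and 1 held an E2F match. Of the 10 transcriptional members with a window, 7 held CCAAT, 0 a CHR match and 0 an E2F match. Over all 33469 windows in the table, 37.5% held CCAAT, 19.7% a CHR match, 2.14% an E2F match and 7.95% both CCAAT and CHR. These shares count single windows, of 27457 genes. Members were counted as genes with a match in any of their windows, so the units differ. A match is a run of letters and not a measured binding site.

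**Figure D2:**
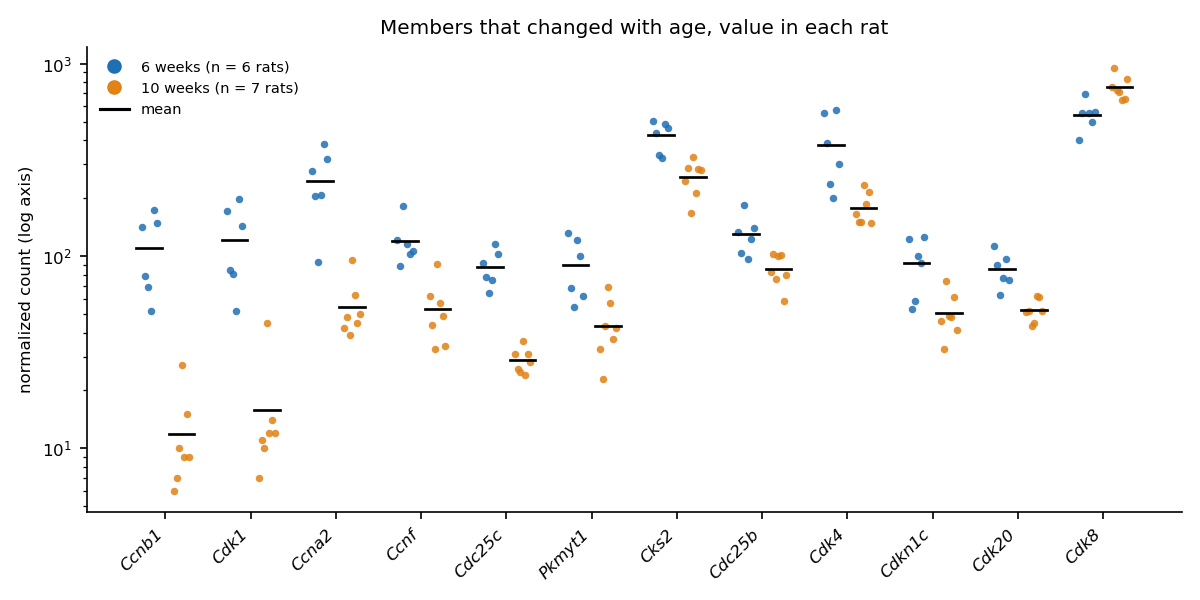
Normalized count (log axis) of the 12 members with an adjusted p under 0.05 in each rat, 6 at 6 weeks (blue) and 7 at 10 weeks (orange), with the mean as a line. *Ccnb1* at 6 weeks lies between 52 and 174 and at 10 weeks between 6 and 27, and *Cdk8* is the member whose mean is higher at 10 weeks.

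Among the regulators of CDK1 tyrosine phosphorylation and the CKS subunits, 4 of 7 rose at 6 weeks and 0 fell (1, *Wee1*, at an unadjusted p under 0.05). *Cdc25c*, a phosphatase that releases CDK1 at mitotic entry, was at 64, 85 and 115 at 6 weeks and at 24, 28 and 36 at 10 weeks. No rats overlapped, and the log2 fold change of 1.56 ± 0.15 had the lowest p of the 48 members (adjusted p = 9.9e-05). *Cdc25b*, which acts earlier on the same substrates, was at 96, 127.5 and 185 and at 58, 83 and 103, with overlap through rat 80 (96). Its log2 fold change was 0.58 ± 0.17 (adjusted p = 0.0386), and the call was lost when any of 8 rats was left out in turn (adjusted p from 0.0261 to 0.0792). *Cdc25a*, the G1 and S phase member, was at 115, 152 and 175 and at 135, 178 and 210, and did not pass the test (log2 fold change -0.21, adjusted p = 0.293).

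*Pkmyt1*, a membrane-bound kinase that inhibits CDK1, was higher at 6 weeks. Its normalized count was 54, 84 and 131 at 6 weeks and 23, 42 and 69 at 10 weeks. Its log2 fold change was 1.02 ± 0.27 (adjusted p = 0.0253), with 3 of 6 rats at 6 weeks above all rats at 10 weeks. The call was lost without rat 70, rat 84 or rat 72 (adjusted p from 0.0126 to 0.0622 with 1 rat left out), and also without rats 78 and 80 together (adjusted p = 0.0673). *Wee1*, the nuclear kinase that places the same kind of inhibitory phosphate, had its values the other way, at 826, 1043.5 and 1450 and at 939, 1779 and 2286. All 6 rats at 6 weeks lay below the median of 10 weeks, but the log2 fold change of -0.60 ± 0.20 did not pass the test (adjusted p = 0.0631). It passed without rat 81 (adjusted p from 0.013 to 0.119 with 1 rat left out), in 4 other settings over all 13 rats, limma-trend among them, and in the larger set of 8 rats (adjusted p = 0.0385).

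*Cks2*, a small subunit that docks CDK1 on phosphorylated substrates, was at 324, 449 and 502 at 6 weeks and at 167, 281 and 328 at 10 weeks. Only rat 80 (324) fell below the highest rat at 10 weeks (rat 81, 328). A log2 fold change of 0.73 ± 0.17 (adjusted p = 0.0133) held whichever rat was left out. Its relative *Cks1b*, which also serves the SCF ligase that degrades p27, was at 247, 403.5 and 511 and at 238, 298 and 332. *Cks1b* did not pass the test (log2 fold change 0.40 ± 0.17, adjusted p = 0.122). It passed without rat 75 (adjusted p from 0.0318 to 0.25 with 1 rat left out) and under sample quality weights. In the larger set of rats its log2 fold change was 0.57 (adjusted p = 0.0286), and in the smaller set it was 0.023.

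Of the 8 G1 cyclins and CDKs, *Cdk4* alone passed the test. This kinase, with D-type cyclins, phosphorylates RB, and it was at 201, 344.5 and 575 at 6 weeks and at 149, 166 and 233 at 10 weeks. Rat 80 (201) was the 1 rat at 6 weeks within the range of 10 weeks. Its log2 fold change was 0.98 ± 0.25 (adjusted p = 0.0194). Among the 8 rats it was 1.38 and among the 5 rats 0.22. Its cyclins did not pass the test. *Ccnd1* was at 765, 860.5 and 1220 and at 582, 745 and 1353, where the highest value of all 13 rats was that of rat 81 at 10 weeks. *Ccnd2* and *Ccnd3* had log2 fold changes of 0.16 and 0.25 with overlapping ages, and *Cdk6*, which shares these cyclins, had 0.066.

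The E-type cyclins, which activate CDK2 at the entry into S phase, leaned in opposite directions without passing the test. *Ccne1* was at 23, 48 and 63 at 6 weeks and at 22, 27 and 33 at 10 weeks, with 4 of 6 rats above all rats at 10 weeks (log2 fold change 0.63 ± 0.23, adjusted p = 0.0724). It passed without rat 75 or rat 80 (adjusted p from 0.0163 to 0.161 with 1 rat left out), and without rats 78 and 80 together (adjusted p = 0.018). Sample quality weights and a term for the first component within ages also gave a pass. In the larger set of rats its log2 fold change was 1.01 (adjusted p = 0.00434), and in the smaller set it was -0.10. *Ccne2* was at 100, 137.5 and 233 and at 151, 187 and 285, with 4 of 6 rats below all rats at 10 weeks (log2 fold change -0.41 ± 0.20, adjusted p = 0.178). *Cdk2* itself was at 179, 212.5 and 257 and at 148, 184 and 253 (log2 fold change 0.17).

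Among the 5 inhibitors, 1 rose at 6 weeks. *Cdkn1c*, which encodes p57, an inhibitor of the CIP/KIP family, was at 53, 96 and 126 at 6 weeks and at 33, 48 and 74 at 10 weeks. Rats 71 (53) and 75 (58) lay within the range of 10 weeks and the other 4 above it. Its log2 fold change was 0.82 ± 0.24 (adjusted p = 0.0352), a call that was lost when any of 8 rats was left out in turn (adjusted p from 0.0192 to 0.0833). The relatives p21 (*Cdkn1a*, a p53 target) and p27 (*Cdkn1b*) had log2 fold changes of -0.10 and -0.11 and ranges of 1828 to 2425 against 1929 to 3173 and of 610 to 803 against 642 to 836. The direction of *Cdkn1a* turned under sample quality weights and in the larger set of rats. The INK4 inhibitors, which bind CDK4 and CDK6, did not pass the test either. *Cdkn2b* (p15) had a log2 fold change of 0.53 (adjusted p = 0.21) and *Cdkn2c* (p18) one of 0.49 (adjusted p = 0.153).

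Particular rats held the highest or lowest values of many cell cycle members. At 6 weeks, rat 84 was the highest rat for 8 of the 24 members, while rat 80 was the lowest for 9 and rat 75 for 7. At 10 weeks, rat 81 was the highest for 10 of the 24. It was highest of its age for 8 of the 11 members that were higher at 6 weeks, all but *Cdc25b* (rat 74), *Cdkn1c* (rat 78) and *Cdk20* (rat 83). The summed level of 12 proliferation markers followed a like order, with rat 84 highest at 6 weeks (9653), rat 80 lowest (5536) and rat 81 highest at 10 weeks (5095). Fibroblast marker sums did not follow that order at 6 weeks, since rat 84 was at 108783, next to the lowest, and rat 80 was highest at 222648. At 10 weeks rat 81 had the highest fibroblast marker sum too, at 55407. It also had the highest luminal marker sum of the 13 rats, at 66535.

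**Figure D3:**
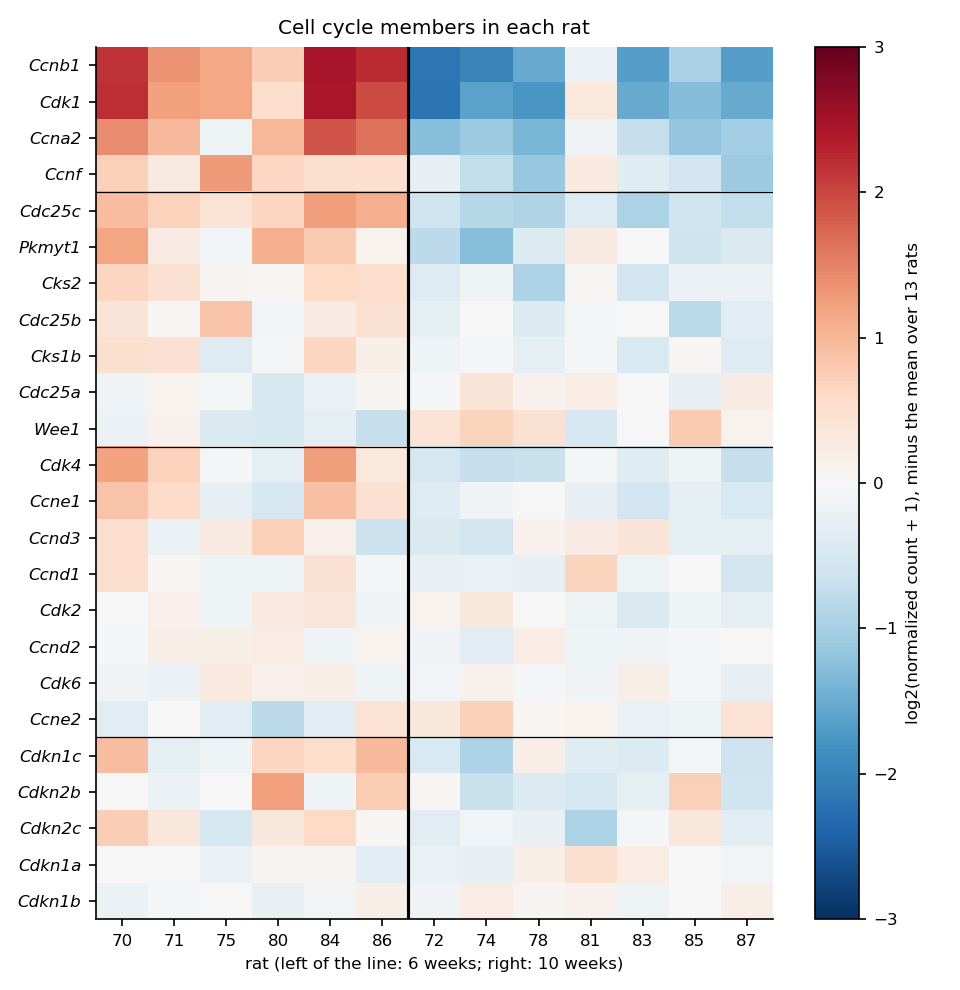
Log2(normalized count + 1) of the 24 cell cycle members in each rat, minus the mean of the gene over the 13 rats, with roles parted by horizontal lines and ages by the vertical line. Red is above and blue below the mean of the gene. Rat 81 stands out among the 10-week rats for *Ccnb1*, *Cdk1*, *Ccna2* and *Ccnf*.

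The 12 transcriptional members moved little, and 9 of them had a log2 fold change below 0, from -0.50 to 0.36 over the list. *Cdk8*, the kinase of the Mediator module, was lower at 6 weeks. Its normalized count was 401, 552.5 and 695 at 6 weeks and 646, 731 and 948 at 10 weeks. Only rat 75 (695) reached the range of 10 weeks. The log2 fold change was -0.48 ± 0.13 (adjusted p = 0.0299). This call was lost when any of 6 rats was left out in turn (adjusted p from 0.016 to 0.0663) and without rats 78 and 80 together (adjusted p = 0.0607). Cyclin C (*Ccnc*), its partner, had a log2 fold change of -0.17 and overlapping ages, and *Cdk19*, its close relative, one of 0.058 that turned below 0 under sample quality weights and in the larger set of rats.

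The kinases that, with cyclin K, phosphorylate the polymerase during elongation had lower values at 6 weeks without passing the test. *Cdk12* was at 2704, 3216.5 and 3395 at 6 weeks and at 3403, 3826 and 4561 at 10 weeks, so all 6 rats lay below all 7 (log2 fold change -0.30 ± 0.10, adjusted p = 0.0604). *Cdk13* was at 1356, 1701 and 1785 and at 1623, 2094 and 2361 (log2 fold change -0.31, adjusted p = 0.0847). Both passed without rat 81 and in the larger set of rats, where the log2 fold changes were -0.42 and -0.44. *Ccnk* itself was at 222, 275.5 and 333 and at 246, 269 and 294, with a log2 fold change of 0.0099 whose sign turned under median-ratio scaling.

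CDK9 and the T-type cyclins form P-TEFb, which releases paused polymerase. *Ccnt2* was at 684, 1071.5 and 1538 at 6 weeks and at 1208, 1504 and 1827 at 10 weeks. At 6 weeks 4 of 6 rats were below all rats at 10 weeks (log2 fold change -0.50 ± 0.19, adjusted p = 0.081). *Ccnt2* passed without rat 75 (adjusted p from 0.0355 to 0.172 with 1 rat left out) and under sample quality weights. In the larger set of rats its log2 fold change was -0.71 (adjusted p = 0.0491), and in the smaller set it was -0.11. *Ccnt1* and *Cdk9* had log2 fold changes of -0.19 and -0.12. CDK7 and cyclin H serve both as part of TFIIH and as the kinase that activates other CDKs, and here *Cdk7* had a log2 fold change of 0.36 (adjusted p = 0.229) and *Ccnh* one of -0.13. *Ccnl2*, a cyclin tied to splicing, was at 1486, 2207 and 2795 and at 1712, 2876 and 3339 (log2 fold change -0.38, adjusted p = 0.198). Its lowest rat at 10 weeks was rat 85, and without that rat the log2 fold change was -0.49. Within 6 weeks, rat 70 was lowest for 7 of the 12 transcriptional members and rat 75 was highest for 6, and at 10 weeks rat 74 was highest for 7.

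**Figure D4:**
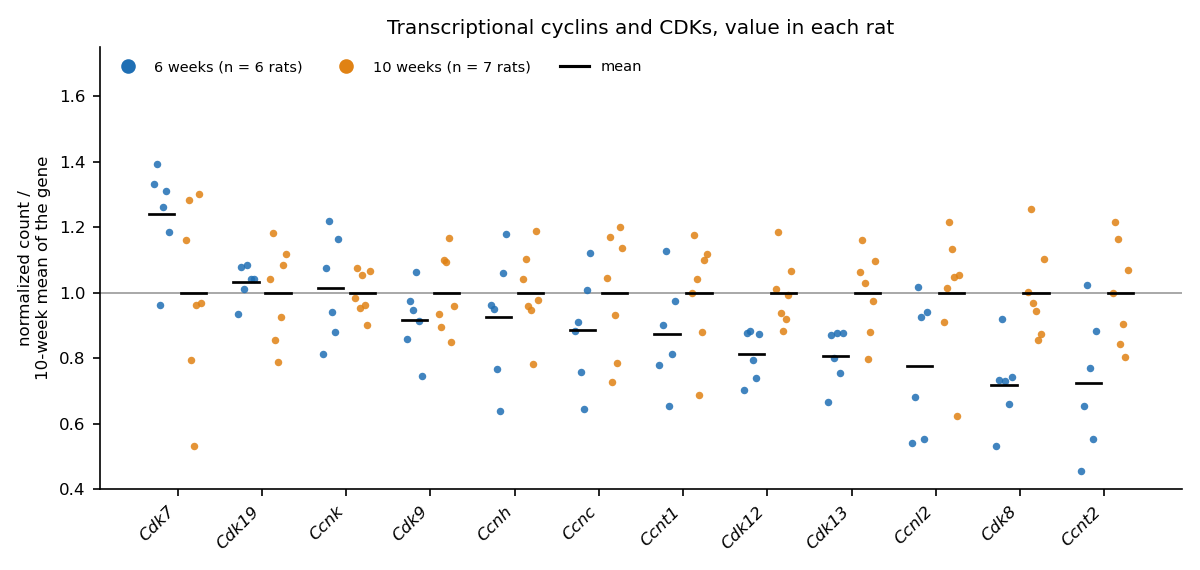
Normalized count of the 12 transcriptional members in each rat divided by the 10-week mean of the gene, 6 rats at 6 weeks (blue) and 7 at 10 weeks (orange), with means as black lines. Rats at 6 weeks lie below the 10-week range for *Cdk12* and, apart from rat 75, for *Cdk8*.

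Of the other 12 members, *Cdk20* rose within WOS. This kinase, also called cell cycle-related kinase, acts at the primary cilium. It was at 63, 83.5 and 113 at 6 weeks and at 43, 52 and 62 at 10 weeks, without overlap. With a log2 fold change of 0.69 ± 0.14 (adjusted p = 0.00737), the call held whichever rat was left out. *Cdk5*, a kinase known from neurons, was at 46, 77 and 98 and at 32, 46 and 64 and did not pass the test (log2 fold change 0.64, adjusted p = 0.0653), although it passed without rat 80, 86 or 83. *Ccng2*, a cyclin linked to cell cycle arrest, was at 507, 632 and 742 and at 370, 502 and 572 (log2 fold change 0.33, adjusted p = 0.106).

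*Ccnj*, a little-studied cyclin, had the lowest log2 fold change of the 48 members and the widest error. Its values at 6 weeks were 6, 74, 0, 194, 56 and 55 (rats 70, 71, 75, 80, 84 and 86), against 45 to 139 at 10 weeks. The low end rested on rats 70 and 75 and the highest value of all rats was that of rat 80, so the log2 fold change of -1.86 ± 0.99 did not pass the test (adjusted p = 0.214). The remaining 8 members did not pass either. *Cdk18* had a log2 fold change of 0.43, *Ccni* 0.21, *Cdk10* 0.11 and *Ccny* 0.080. *Cdk17* had -0.063, *Cdk16* -0.14, *Ccng1*, a p53 target, -0.21 and *Cdk14* -0.28.

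Kinases and their cyclins were also compared rat by rat within each age, to ask whether partners varied together. *Cdk1* and *Ccnb1* did so at both ages, with Pearson's r of 0.985 over the 6 rats at 6 weeks (exact permutation p = 0.00417, adjusted p = 0.00833 over 6 relations) and 0.932 over the 7 rats at 10 weeks (exact permutation p = 0.00238, adjusted p = 0.00714). Spearman's rho was 0.943 (exact permutation p = 0.0167, adjusted p = 0.05) and 0.782 (exact permutation p = 0.0452, adjusted p = 0.0679). By rank neither relation was under the threshold of 0.05 after adjustment. With the 2 rats farthest from the median *Cdk1* left out, r was 0.966 at 6 weeks and 0.657 at 10 weeks (exact permutation p = 0.208 and 0.2, where 0.0417 and 0.00833 are the smallest possible). The relation at 10 weeks did not pass the test without this pair of rats (72 and 81), nor without rat 81 alone (r 0.783, exact permutation p = 0.075), while without rat 72 alone r was 0.913 (exact permutation p = 0.0167). *Cdk4* and *Ccnd1* had r of 0.955 at 6 weeks (exact permutation p = 0.00556, adjusted p = 0.00833) and 0.856 at 10 weeks (exact permutation p = 0.00119, adjusted p = 0.00714). Their rho was 0.886 (exact permutation p = 0.0333, adjusted p = 0.0667) and 0.893 (exact permutation p = 0.0123, adjusted p = 0.05), also not under the threshold after adjustment. Without the 2 farthest rats r was 0.958 at 6 weeks (exact permutation p = 0.0417, the smallest possible) and 0.549 at 10 weeks (rats 81 and 85 left out, exact permutation p = 0.25). At 10 weeks r was 0.768 without rat 81 alone (exact permutation p = 0.0806) and 0.912 without rat 85 alone (exact permutation p = 0.00833). At 6 weeks the test was not passed without rat 86, although r was 0.957 (exact permutation p = 0.0667).

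*Cdk9* and *Ccnt1* did not share this pattern, with r of -0.413 at 6 weeks (exact permutation p = 0.418; rho -0.314, exact permutation p = 0.564) and -0.665 at 10 weeks (exact permutation p = 0.0899, adjusted p = 0.108; rho -0.607, exact permutation p = 0.167). With the 2 farthest rats left out, r was 0.638 at 6 weeks (exact permutation p = 0.417), the opposite sign, and -0.876 at 10 weeks (exact permutation p = 0.0833). All of these tests are two-sided. The rats of an age also differ by set, and since a set held at most 4 rats of an age, under the minimum of 6 used for a correlation, no value is given within sets.

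**Figure D5:**
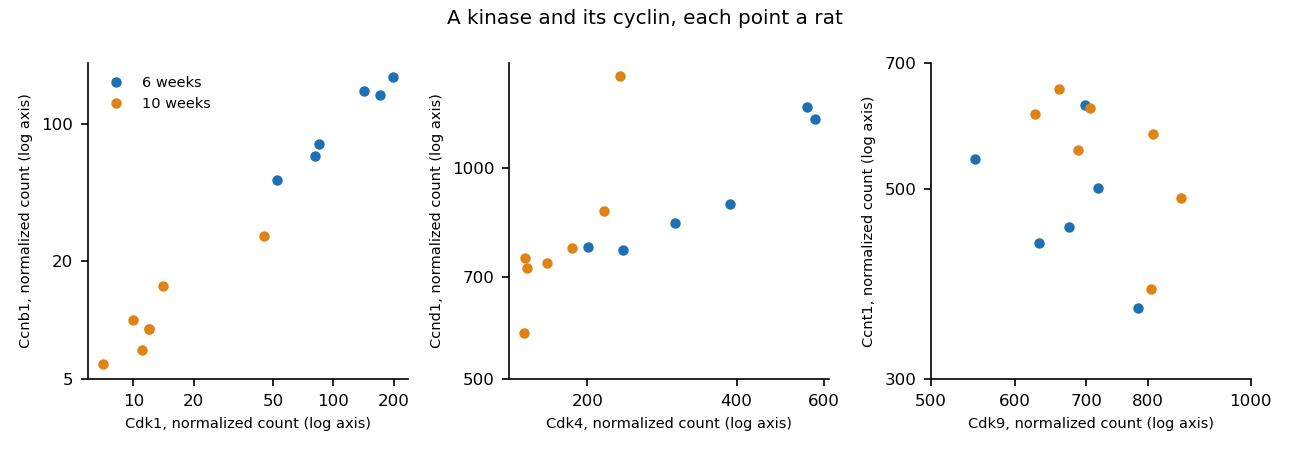
Normalized counts (log axes) of a kinase and its cyclin, each point a rat, 6 rats at 6 weeks (blue) and 7 at 10 weeks (orange). *Cdk1* and *Ccnb1* rise together within and between ages, *Cdk4* and *Ccnd1* rise together within each age with rat 81 at the top (*Ccnd1* 1353), and *Cdk9* and *Ccnt1* show no such rise.

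Genes of the same pathways were read beside the members. Over all genes tested, 8.71% were higher at 6 weeks and 7.39% at 10 weeks at an adjusted p under 0.05 in limma. Of the 11 kinases and kinase partners that act with CDK1 in mitosis, 9 were higher at 6 weeks and 0 at 10 weeks (0 at an unadjusted p under 0.05), with a median log2 fold change of 2.12. They were led by *Tpx2*, the activator of Aurora A (3.67 ± 0.73), the spindle checkpoint kinase *Ttk* (2.45 ± 0.28) and *Bub1* (2.42 ± 0.22). *Tpx2* ranged from 121 to 296 at 6 weeks and from 0 to 55 at 10 weeks. With a value of 0, the size of its log2 fold change depends on the 1 added to each value. Of 12 proliferation markers 8 were higher at 6 weeks and 0 at 10 weeks (0 unadjusted), among them *Top2a* (3.05 ± 0.37), *Mki67* (2.49 ± 0.31) and *Mcm5* (2.08 ± 0.30). Of 20 E2F, RB and DREAM genes, 7 were higher at 6 weeks and 3 at 10 weeks. Here the largest changes were those of *E2f8* (2.53 ± 0.40), *Mybl2* (1.96 ± 0.22) and *E2f2* (1.93 ± 0.39). *E2f8* was low, at 10 to 26 at 6 weeks and at 0 to 6 at 10 weeks, and *E2f2* was at 24 to 62 and at 2 to 17. Of 23 genes of or acting on ubiquitin ligases that degrade cyclins and inhibitors, 4 were higher at 6 weeks and 1 at 10 weeks. The largest changes were those of *Ube2c* (1.97 ± 0.32), *Mad2l1*, a checkpoint inhibitor of such a ligase (1.95 ± 0.23), and *Cdc20* (1.57 ± 0.26). Of 17 partners of the transcriptional CDKs, 1 was higher at each age, which lies near the shares over all genes. *Mnat1*, the third subunit of the CDK7 complex, was higher at 6 weeks (0.43 ± 0.13, adjusted p = 0.0449). The elongation factor gene *Ell2* was higher at 10 weeks (-0.62 ± 0.11, adjusted p = 0.00272).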

How the data were processed

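RNA-seq values of 13 rats were analysed, 6 at 6 weeks and 7 at 10 weeks, grouped by the age in each library's title, whose leading number is used here as the number of the rat. Counts per gene were estimated by the authors in RSEM 1.2.22, and the deposited per-rat values are a score, namely counts scaled per library and rounded to whole numbers, with a genome named as rn5 in the submitters' processing notes. The scaling method and annotation are not given in the sources used here. Totals per rat after scaling were 13261906 to 15659533, and the depth before scaling is unknown. In 7 of 13 rats some low whole numbers do not occur, which leaves less precision for low genes there. RSEM divides reads shared by related genes by estimate. Among the members, 0 shared all values with another gene. The authors' own EdgeR comparison (fold changes, mean abundances, p-values, false discovery rates, status) and words on nuclear or cytoplasmic location were not used.

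Log2(value + 1) was fitted with limma 3.58.1 in R 4.3.3 for all 14790 genes, each with a mean of at least 1, without covariates. Two-sided p-values were adjusted over all genes (Benjamini-Hochberg), and 0.05 was the threshold. The fold change is 6 weeks over 10 weeks on the log2(value + 1) scale, which understates changes of low genes. A count test had no raw counts to use. The procedure was tried on simulated data with noise drawn independently for each gene and rat. That noise lacks the component the rats share within ages, so the simulation does not show the error rate in these data. Correlations used exact permutation tests in Python 3.11.15 with scipy 1.17.1. Promoter windows came from RefSeq (GRCr8), matched by symbol.

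Members, lists and tests were chosen with earlier results of these data known. Every member is named, members that passed the test or changed by over 1 on the log2 scale are given in full, and of each partner list up to 3 of the changed genes with the largest change are named. Alternatives were 3 scalings, pseudocounts of 0.1 and 5, other minimums, sample quality weights, limma-trend, a term for the first component within ages, each rat left out in turn and each rat set alone. Leaving out rats 78 and 80 together, whose smallest value above 0 is 2, was added after seeing the data.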

Additional observations from a re-analysis of the deposited data

Results flagged for a closer look

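*Cdk1* at 10 weeks had a highest rat far from the others of its age: rat 81 was at 45 and the next at 14, a gap of 0.641 of the range on the log2 scale. *Ccnl2* at 10 weeks had a lowest rat far from the others, rat 85 at 1712, a gap of 0.570 of the range. These were 2 of 96 groups looked at (48 members at 2 ages), where chance gives about 1 in 20.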

How the results depend on the processing

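The number of changed cell cycle members, 10, was 10 under each of the 3 scalings and both pseudocounts. It was 16 under sample quality weights (2 of them higher at 10 weeks). It was 12 with a term for the first component within ages and 13 in the larger set, each with 1 higher at 10 weeks. It was 0 in the smaller set of 5 rats alone, and 7 to 12 with 1 rat left out. With a minimum of 10 in every rat, which *Ccnb1* and *Cdk1* did not reach, 9 of 22 changed (1 of them higher at 10 weeks). The number of changed transcriptional members, 1, was 2 under limma-trend and with a term for the first component within ages, 5 under sample quality weights, 4 in the larger set of rats, 0 in the smaller set, 0 without rats 78 and 80, and 0 to 3 with 1 rat left out. That of the other members, 1, was 2 with a minimum of 10 in every rat, with that component as a term and in the larger set, 5 under sample quality weights, 0 in the smaller set, and 1 to 2 with 1 rat left out. Over the whole table the 2381 genes became 5647 under sample quality weights, 0 in the smaller set, and 1411 to 2680 with 1 rat left out. The split of 1288 higher and 1093 lower at 6 weeks was 1297 and 772 under library size scaling and 1203 and 1174 under median-ratio scaling. Signs turned for *Cdkn1a* (0.065 under weights, 0.080 in the larger set), *Ccnk* (-0.011 under median-ratio scaling, -0.020 under weights, -0.046 in the larger set, -0.046 to 0.071 with 1 rat left out), *Cdk19* (-0.019 under weights, -0.11 in the larger set), *Cdk6* (-0.0057 in the larger set) and, in the smaller set, *Ccnd1* (-0.24), *Ccne1* (-0.10), *Ccny* (-0.066), *Cdk17* (0.18) and *Ccnt1* (0.0026), none of which passed the test over all 13 rats. With 1 rat left out, r was 0.783 to 0.968 for *Cdk1* and *Ccnb1* at 10 weeks, 0.934 to 0.980 for *Cdk4* and *Ccnd1* at 6 weeks, 0.768 to 0.912 at 10 weeks, and -0.732 to 0.052 for *Cdk9* and *Ccnt1* at 6 weeks. The cause of these changes was not tested. *Ccna2*, *Ccnb1*, *Ccnf*, *Cdk1*, *Cdc25c*, *Cks2*, *Cdk4* and *Cdk20* passed the test whichever rat was left out. No paired analysis was possible because the ages share no rat numbers. The rounding of scaled values limits precision for low genes such as *Ccnb1* at 10 weeks.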
